A study of Homo sapiens with 13 samples.

Results

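A set of 10 Wnt ligand genes was followed in human embryonic stem cells that differentiated under BMP4 while the release of Wnt protein was blocked. They are WNT2B, WNT3, WNT3A, WNT4, WNT5A, WNT5B, WNT6, WNT7B, WNT8A and WNT11, matched by gene name in the count tables. The choice was made with earlier results of these data known, so they are no unbiased sample of Wnt ligands. They make up 10 of the 19 human Wnt ligand genes and 10 of the 61546 features in the tables. The study asked how the level and the duration of BMP signaling set the fate of the cells. The cells were RUES2, an established human embryonic stem cell line, carrying a fusion of GFP to SMAD4, the shared effector of BMP signaling. In the time series, cells received 100 ng/mL BMP4 with 5 µM IWP2 and ROCK inhibitor, and RNA was collected at 0 h (2 libraries) and at 4, 12, 20, 28 and 42 h (1 library each). The 0 h libraries carry the same treatment in their labels and are read here as collected when it began. In the dose response, cells received the same BMP4, IWP2 and ROCK inhibitor for 5 h with LDN-193189 (LDN), which inhibits BMP receptors, at 0, 10, 30, 100 or 300 nM, and a sixth library came from cells kept in mTeSR medium, called untreated below (1 library each). All 13 libraries therefore come from 1 tagged line, sparsely seeded. IWP2 was present in every library that received BMP4, so BMP4 and IWP2 cannot be told apart in a comparison with untreated cells. The same holds for ROCK inhibitor, which the label of the untreated library does not name.

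Wnt ligands are secreted proteins that need a lipid, attached by the acyltransferase PORCN, before the carrier WLS takes them to the cell surface. They bind Frizzled receptors, with LRP5 or LRP6 when the signal goes through β-catenin, and with ROR or RYK coreceptors in other branches. IWP2 inhibits PORCN, so it acts on the protein and not directly on the ligand genes, whose mRNA is what was measured here. In the early embryo WNT3 is needed to form the primitive streak, and BMP signaling is known to act upstream of it. WNT3A and WNT8A also signal mainly through β-catenin, whereas WNT5A, WNT5B and WNT11 are best known for branches that act on cell polarity and movement. WNT4, WNT6 and WNT7B are known from kidney, skin and other epithelia.

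The 7 time-series libraries held 37957385 to 71333471 counts and the 6 dose-response libraries 15600931 to 33989998, the fewest in untreated cells. Levels are given as CPM, counts scaled to the library total, in which 3 counts, taken as the floor for a gene at 0, are worth 0.0421 to 0.079 CPM in the time series and 0.0883 to 0.192 CPM in the dose response. Mitochondrial genes took 2.01% to 7.60% of the counts in the time series and 4.22% to 7.89% in the dose response, the most in untreated cells. In the time series, 0 h replicate 1 had the highest mitochondrial share and the fewest counts, and the 42 h library had the lowest share. The 2 libraries at 0 h had a Spearman correlation of 0.985 across 15621 genes and differed by more than sampling noise, with an SD of 0.386 for the log2 ratio of a gene. Nothing says that they came from separate cultures, so the spread between them, behind each p of the 4 h and 42 h contrasts, may be technical. They also enter the trend over time, but not the trend over LDN dose, where no dose has a replicate. For the trends over time and LDN dose, the error is the scatter of the libraries about a straight line. It holds departure from that line as well as noise, so a gene that rises and then falls has a large error. The experiments differed in RNA kit and in library preparation (ribosomal depletion against polyA selection), and levels are compared only within each. Pluripotency markers (8 genes) summed to between 3707 and 8420 CPM in every library. Over the time series 6 of the 8 fell (edgeR trend, described below). The other 2, LIN28A and POU5F1, had the highest mean levels of the list, so the sum hides these falls. Markers of the primitive streak (5 genes), neural cells (3 genes) and endoderm (3 genes) summed to at most 4.79, 1.63 and 4.30 CPM. Markers of mesenchyme and fibroblasts (4 genes) summed to between 107 and 223 CPM. In bulk RNA, fewer cells of a kind and less RNA per cell cannot be told apart.

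Promoter windows of 250 bases before a transcript start were found for 8 of the 10 genes, in 11 windows (RefSeq, GRCh38.p14). Those of WNT3, WNT3A and WNT6 are printed because the first of these changed both by 4 h and with LDN dose, the second rose most in ratio at 4 h and the third reached the highest level per length at 42 h. Capitals mark matches, on either strand, to the letters of the SMAD box (CAGAC), of the GC-rich SMAD element (GGCGCC) and of the TFAP2 motif (GCCNNNGGC). Neither the TCF/LEF letters ATCAAAG nor the GATA letters AGATAA occur in these 3 windows.
WNT3, chr17:46818693-46818942, minus strand: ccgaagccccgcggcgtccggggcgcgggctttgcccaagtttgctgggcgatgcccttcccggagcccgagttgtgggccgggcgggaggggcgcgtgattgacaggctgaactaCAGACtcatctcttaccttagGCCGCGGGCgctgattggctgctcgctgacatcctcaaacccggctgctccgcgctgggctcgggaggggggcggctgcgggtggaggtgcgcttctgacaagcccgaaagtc
WNT3A, chr1:228006748-228006997, plus strand: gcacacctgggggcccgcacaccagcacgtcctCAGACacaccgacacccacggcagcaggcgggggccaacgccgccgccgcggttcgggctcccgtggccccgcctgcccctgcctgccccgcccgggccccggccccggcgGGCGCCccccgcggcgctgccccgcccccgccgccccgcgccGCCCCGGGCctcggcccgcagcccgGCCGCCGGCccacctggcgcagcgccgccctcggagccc
WNT6, chr2:218859555-218859804, plus strand: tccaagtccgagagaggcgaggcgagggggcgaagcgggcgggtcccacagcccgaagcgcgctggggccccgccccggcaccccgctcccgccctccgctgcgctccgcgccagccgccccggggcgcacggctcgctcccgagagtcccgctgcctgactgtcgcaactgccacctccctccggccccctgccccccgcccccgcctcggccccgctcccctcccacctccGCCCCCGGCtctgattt

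The 3 windows had 68.8%, 86% and 79.2% G and C, against a median of 58% over 34788 windows of the same length. The SMAD box letters lay 134 to 130 bases before the WNT3 start and 217 to 213 bases before the WNT3A start, and were absent from the WNT6 window. They occur in 38% of all windows, GGCGCC in 16.4%, GCCNNNGGC in 19.8%, ATCAAAG in 2.27% and AGATAA in 9.21%, so a match by itself sets none of these genes apart. None of the matches overlaps another. In the GENCODE annotation of GRCh38 the WNT3 gene spans chr17:46762506-46833154 on the minus strand, and WNT9B starts 46 bases beyond its outermost start on the opposite strand. The window printed for WNT3 lies inside this span, before another start, from which the WNT3 positions above are counted. It does not adjoin WNT9B. WNT3A spans chr1:228006998-228061271 and WNT6 spans chr2:218859805-218874233, with 4 exons each.

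Over 42 h the Wnt ligand mRNA of these cells rose and changed its make-up. Per length, in the deposited FPKM, the 10 genes summed to 3.29 and 4.35 in the 0 h libraries, then to 8.64, 11.2, 25.2, 54.9 and 258 at 4, 12, 20, 28 and 42 h. The sum at each later time lay above both 0 h libraries. WNT5A led at 0 h, with 28.3% and 28.7% of the summed FPKM of all 19 ligands. WNT3 led at 4 h and 12 h (34.6% and 39.2%), WNT5B at 20 h and 28 h (44.3% and 39.2%) and WNT6 at 42 h (71.8%). The order thus changed from WNT5A to WNT3 to WNT5B to WNT6. WNT6 was second at 28 h with 34.4%, close to WNT5B, and WNT5B was second at 42 h with 16.6%. The 9 other ligands together gave 24.9% and 18.8% at 0 h and 1.20% at 42 h. These shares rest on RSEM's estimate of transcript length, and for WNT5A the CPM behind 1 FPKM moved between 2.13 and 4.06 over the time series.

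**Figure D1:**
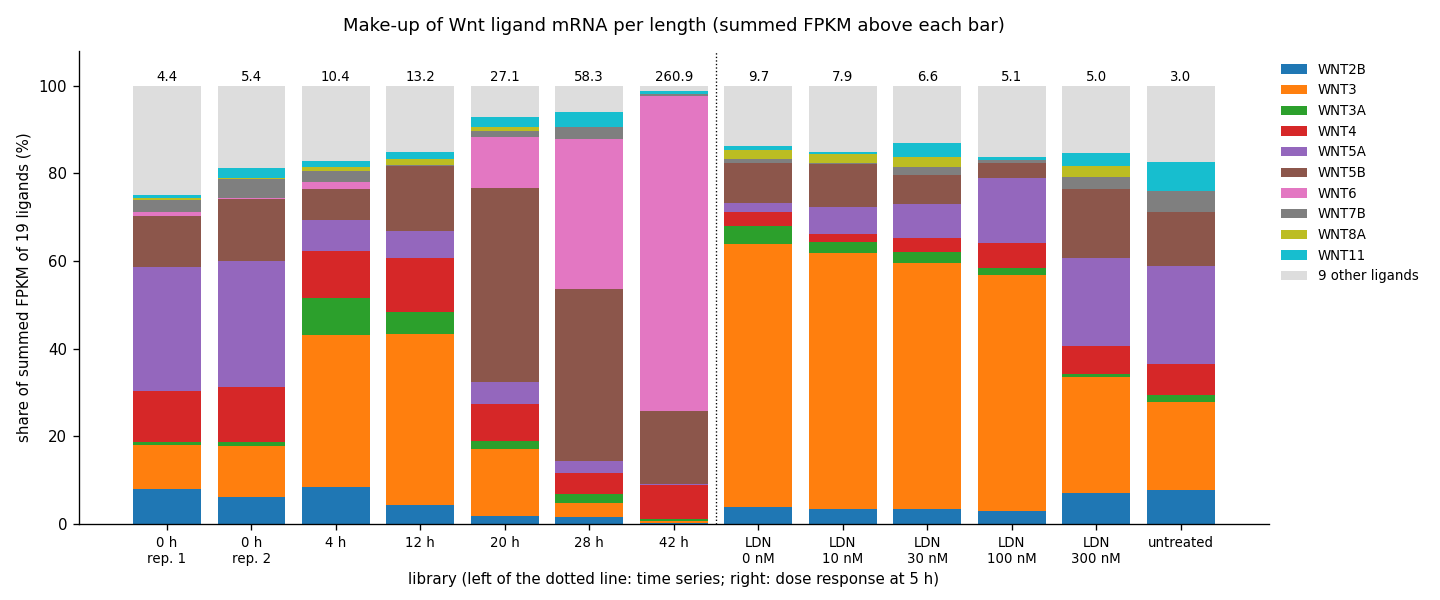
Share of each Wnt ligand gene in the summed FPKM of 19 ligands (%, vertical axis) in each of 13 libraries (bars), with the summed FPKM above each bar and the 9 other ligands in grey. The leading gene changes from WNT5A at 0 h to WNT3, WNT5B and WNT6 in the time series, and WNT3 shrinks with LDN dose.

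The comparisons of the time series were tested with edgeR's quasi-likelihood test and Benjamini-Hochberg adjustment over 15976 genes that averaged at least 1 CPM, which 8 of the 10 genes reached (all but WNT8A and WNT11). In the linear trend over 42 h, 4 of the 8 rose (WNT4, WNT5B, WNT6, WNT7B) and none fell, where 19.2% of all genes tested rose and 17.5% fell. Between 4 h and 0 h, 3 of the 8 were higher (WNT3, WNT3A, WNT6) and none lower, where 4.39% of all genes were higher and 0.632% lower. Between 42 h and 0 h, 6 of the 8 were higher (all but WNT2B and WNT5A) and none lower, where 19.9% of all genes were higher and 17.8% lower. WNT3A, WNT5B, WNT6 and WNT7B were below 1 CPM in both 0 h libraries and passed the filter only through later libraries in which they were higher, so these counts are no measure of the 10 genes as a group and are not read against the shares. The tests at 4 h and 42 h share the 0 h libraries and rest on 1 residual degree of freedom, with the lone later library assumed to vary like that pair, and limma on log2(FPKM + 0.1) called no gene in either.

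**Figure D2:**
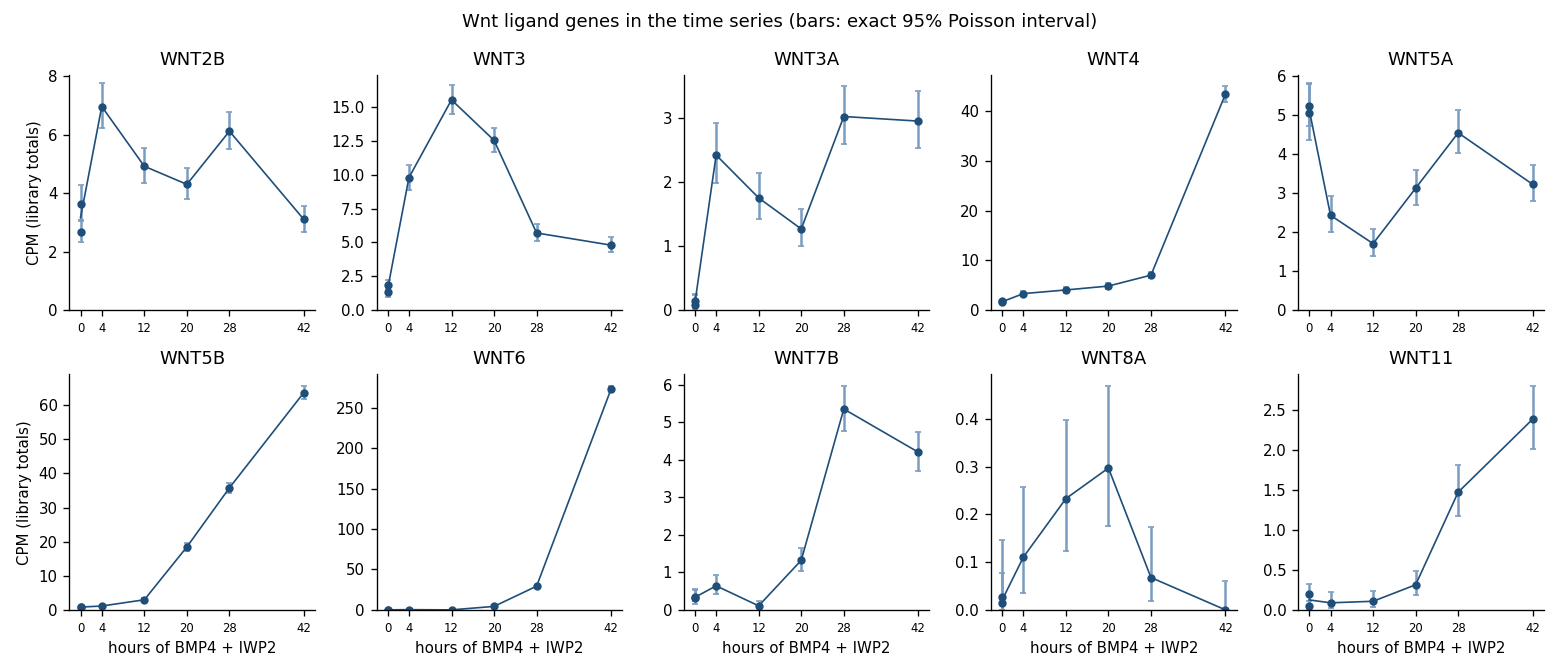
CPM of the 10 Wnt ligand genes (vertical axes, each from 0 on its own scale) against hours of BMP4 and IWP2. Points are libraries, bars exact 95% Poisson intervals and lines join the means. WNT3 is highest at 12 h, WNT5A lowest at 12 h, and WNT4, WNT5B, WNT6 and WNT11 are highest at 42 h.

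WNT3, the ligand of the primitive streak, rose early and then fell back in part. It stood at 1.32 and 1.85 CPM at 0 h (mean 1.58 ± 0.377, SD, n = 2) and then at 9.80, 15.5, 12.5, 5.70 and 4.80 CPM at 4, 12, 20, 28 and 42 h. Each later library lay above both 0 h libraries, and the intervals for counting error of 28 h (5.11 to 6.35 CPM) and 42 h (4.27 to 5.39 CPM) overlapped, so these levels were not told apart. The ratio to 0 h was 5.88 at 4 h (95% exact interval 4.94 to 7.03, for counting error only, as for all ratios below; the 0 h libraries were pooled, counts over totals, so that the deeper one weighs more than in the mean), 9.33 at 12 h (7.94 to 11) and 2.89 at 42 h (2.39 to 3.49). In edgeR the log2 change was 2.53 at 4 h (SE 0.34, adjusted p = 7.87e-12) and 1.82 at 42 h (SE 0.34, adjusted p = 7.45e-07). The linear trend was 0.81 over 42 h (SE 1.41, edgeR adjusted p = 0.676), with the rise and fall counted in its error.

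WNT3A, a close relative of WNT3 that acts in the streak and in paraxial mesoderm, was near the floor at 0 h and was detected at every later time. It had 3 and 10 counts at 0 h (0.079 and 0.140 CPM), 110 at 4 h (2.43 CPM), 98 at 12 h (1.76 CPM), 77 at 20 h (1.27 CPM), 179 at 28 h (3.03 CPM) and 181 at 42 h (2.96 CPM). The 20 h library lay below the 4 h library, with intervals for counting error that did not overlap (1.99 to 2.93 CPM at 4 h against 1.0 to 1.59 CPM at 20 h). With 1 library each, this difference was not tested. Both later libraries were above 2.5 CPM and were not told apart. Against 0 h, the ratio was 20.4 at 4 h (11.5 to 39.5) and 24.9 at 42 h (14.2 to 47.6). The log2 change in edgeR was 4.27 at 4 h (SE 0.55, adjusted p = 1e-12) and 4.88 at 42 h (SE 0.54, adjusted p = 2.86e-18). Its linear trend of 2.68 missed the threshold (SE 1.28, adjusted p = 0.135), and passed it without the 4 h library (4.47, adjusted p = 0.0311) and in DESeq2 (adjusted p = 0.0463).

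WNT8A, which acts in early mesoderm of vertebrates, was scarcely detected. It had 1 count in each 0 h library, then 5, 13, 18, 4 and 0 counts at 4, 12, 20, 28 and 42 h. The highest level was 0.297 CPM at 20 h (0.176 to 0.470), a ratio of 16.2 to 0 h (3.89 to 144) that rests on 2 counts at 0 h. At 42 h the 0 counts allow up to 0.049 CPM. The gene was below the filter, and in the edgeR fit without one (39033 genes) it passed no test (time trend 0.07, adjusted p = 0.983).

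WNT5A, which acts with ROR2 in limb and body axis outgrowth, had lower levels at 4 h and 12 h than at 0 h. It stood at 5.03 and 5.21 CPM at 0 h (mean 5.12 ± 0.129, SD, n = 2) and then at 2.43, 1.70, 3.12, 4.54 and 3.22 CPM at 4, 12, 20, 28 and 42 h. In CPM the 12 h library was lowest and every later library was below both 0 h libraries, although the interval at 28 h (4.01 to 5.11 CPM) overlapped theirs. In FPKM the direction at 28 h was turned, with 1.60 against 1.24 and 1.54 at 0 h, the 20 h library (1.36) lay between those at 0 h, and the lowest was 4 h (0.75). The ratio to 0 h was 0.471 at 4 h (0.381 to 0.579), 0.330 at 12 h (0.263 to 0.411) and 0.625 at 42 h (0.529 to 0.736). In edgeR the log2 change was -1.16 at 4 h (SE 0.42, adjusted p = 0.0994) and -0.43 at 42 h (SE 0.40, adjusted p = 0.424), neither past the threshold.

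WNT5B, the closest relative of WNT5A, took another course. It stood at 0.711 and 0.925 CPM at 0 h (mean 0.818 ± 0.151, SD, n = 2) and then at 1.13, 2.96, 18.5, 35.8 and 63.7 CPM at 4, 12, 20, 28 and 42 h. From 4 h on, each library lay above the one before it, with intervals that did not overlap. Against 0 h, the ratio was 1.32 at 4 h (0.921 to 1.88), 3.47 at 12 h (2.68 to 4.53), 21.7 at 20 h (17.5 to 27.1) and 74.9 at 42 h (61.0 to 93.0). The trend was a log2 rise of 7.40 over 42 h (SE 0.70, edgeR adjusted p = 0.000202; 8.84 without the 42 h library), and the 4 h value of 0.35 did not pass (SE 0.40, adjusted p = 0.987). The antisense gene FBXL14 lies within the WNT5B span (chr12:1529891-1647212) but shares no exonic base with it.

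WNT11, which acts on cell movement in gastrulation, appeared late and stayed low. It had 2 and 14 counts at 0 h (0.0527 and 0.196 CPM), then 4, 6, 19, 87 and 146 counts at 4, 12, 20, 28 and 42 h (1.47 CPM at 28 h and 2.39 CPM at 42 h). No library up to 20 h exceeded 0.314 CPM, and both later ones lay above that level. The ratio at 42 h was 16.3 (9.70 to 29.3). Only the edgeR fit without a filter (39033 genes) held it, with a trend of 5.13 (SE 0.69, adjusted p = 0.000166).

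WNT6 changed most of the 10 genes. It had 2 and 1 counts at 0 h (0.0527 and 0.0140 CPM), 11 at 4 h (0.243 CPM), 0 at 12 h (up to 0.0537 CPM at the floor), 260 at 20 h (4.29 CPM), 1731 at 28 h (29.3 CPM) and 16706 at 42 h (273 CPM). It had at most 11 counts up to 12 h and rose in each of the 3 later libraries. The ratio to 0 h was 156 at 20 h (52.9 to 763), 1067 at 28 h (365 to 5181) and 9945 at 42 h (3402 to 48230), all against 3 counts at 0 h. Its log2 rise at 42 h was rank 6 of the 15976 genes tested (13.39, SE 0.53, edgeR adjusted p = 2.04e-135), a fitted value that depends on the prior count and was 14.28 without 0 h replicate 1 and 12.5 without 0 h replicate 2. The higher value at 4 h (ratio 8.84, 2.34 to 49.4; log2 2.95, SE 0.89, edgeR adjusted p = 0.0210) rests on 11 counts against 3, was followed by 0 counts at 12 h, was 3.84 without 0 h replicate 1 and 2.06 without 0 h replicate 2 on the log2 scale, and did not pass in DESeq2 (adjusted p = 0.0738).

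WNT4, known from kidney and the female reproductive tract, rose slowly and then steeply. It stood at 1.58 and 1.81 CPM at 0 h (mean 1.69 ± 0.161, SD, n = 2) and then at 3.33, 4.07, 4.85, 7.04 and 43.4 CPM at 4, 12, 20, 28 and 42 h. All later libraries lay above both at 0 h, neighbours from 4 h to 20 h overlapped in their intervals, and most of the rise fell between the last libraries. Against 0 h, the ratio was 1.93 at 4 h (1.55 to 2.40), 4.07 at 28 h (3.42 to 4.86) and 25.1 at 42 h (21.7 to 29.3). The trend was 4.42 (SE 0.42, edgeR adjusted p = 0.000208), and 2.93 without the 42 h library (adjusted p = 0.00322). At 4 h the value was 0.88 (adjusted p = 0.136).

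WNT7B, which acts in lung and kidney development, stood at 0.316 and 0.350 CPM at 0 h and then at 0.640, 0.107, 1.32, 5.35 and 4.20 CPM at 4, 12, 20, 28 and 42 h. The lowest library was 12 h, with 6 counts, and the highest 28 h, just above the interval at 42 h (3.70 to 4.75 against 4.77 to 5.97 CPM). The ratio to 0 h was 12.4 at 42 h (8.76 to 18.0), and the trend was 4.65 (SE 1.0, edgeR adjusted p = 0.00843). The trend was 3.86 without the 28 h library, 5.66 without the 42 h library and 2.73 with limma on FPKM, each past the threshold.

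WNT2B, a ligand of lung, retina and liver, was at 42 h within the range of the 0 h libraries. It stood at 3.64 and 2.69 CPM at 0 h and then at 6.97, 4.93, 4.31, 6.13 and 3.10 CPM at 4, 12, 20, 28 and 42 h. The 4 h library was the highest. The ratio of 42 h to the pooled 0 h libraries was 1.03 (0.856 to 1.23), whereas the log2 ratio to the mean of their levels was -0.02. The ratio at 4 h was 2.31 (1.97 to 2.7), with a log2 change of 1.06 (SE 0.37, edgeR adjusted p = 0.0690). Its last exons share 2665 bases with ST7L on the opposite strand, which reached 11.1 CPM, and whether the counting used strand is not given in the sources used here, so reads of the 2 genes may be split and the WNT2B level is uncertain.

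The late rise of WNT6, WNT5B and WNT4 came after amnion-like markers (8 genes, GATA3 and ISL1 among them) had begun to rise in sum. The summed level of these markers was 14.1 CPM in both 0 h libraries, then 241, 594, 1355, 2403 and 4557 CPM from 4 h to 42 h. At 42 h the highest single gene gave 2919 CPM of this sum. The list was mixed in its timing. In edgeR the log2 changes at 4 h lay between 1.98 and 8.18 for GATA2, GATA3, TFAP2A, TFAP2C and HAND1. For ISL1, VTCN1 and GABRP they lay between -1.11 and -0.12. The summed pluripotency markers went from 7987 and 8420 CPM at 0 h to 3707 CPM at 42 h. Their log2 changes at 42 h in edgeR were -7.98 for PRDM14, -6.68 for NANOG, -5.43 for TDGF1 and -4.80 for SOX2. For DPPA4, DNMT3B, LIN28A and POU5F1 they were -2.63, -1.41, -0.49 and -0.01. The part of such changes in the make-up of the cells was not tested. Over the 6 time points and 12116 genes, those with the profile most like WNT5B in log2(CPM + 0.5) were ISL1, ARHGAP29 and HID1 (Pearson r 0.999, 0.999 and 0.998). Those most like WNT6 were MAPKAPK2, WWTR1 and FKBP9 (0.997, 0.997 and 0.996), and those most like WNT4 were KANK4, ENC1 and TTC7B (0.999, 0.997 and 0.995). These describe 6 points of the same libraries, and 54, 34 and 18 genes respectively had an r over 0.99.

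The dose response at 5 h asked how far the early values depend on the level of BMP signaling. Without LDN, against untreated cells, WNT3 and WNT3A were higher and WNT5A was lower. With LDN, WNT3 was lower at each higher dose. With 1 library a condition there is no test against untreated cells. Of the 10 genes, 7 had at least 10 counts over both libraries, of which 2 were higher by at least 2-fold and 1 lower, where 12.2% of 18785 features were higher and 3.64% lower. WNT3A met this only through the library in which it was higher (31 counts against 2), so these counts are not read against the shares. For the LDN trend, edgeR tested 14907 genes that averaged at least 1 CPM in the 5 libraries with BMP4, on the order of the doses, and reports the log2 change from 0 to 300 nM. Of the 3 members that reached this level, WNT5A rose with dose and WNT3 and WNT2B fell, where 10.4% of all genes rose and 10.9% fell. The WNT5A call was lost in DESeq2, in limma and in 4 of the 5 fits that left out a library, and the WNT2B call in all of the 5 and in every other alternative but library totals. The summed amnion-like markers went the way of WNT3, at 240, 159, 91.5, 36.5 and 14.0 CPM from 0 to 300 nM and 10.1 CPM in untreated cells, and their part in these results was not tested.

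**Figure D3:**
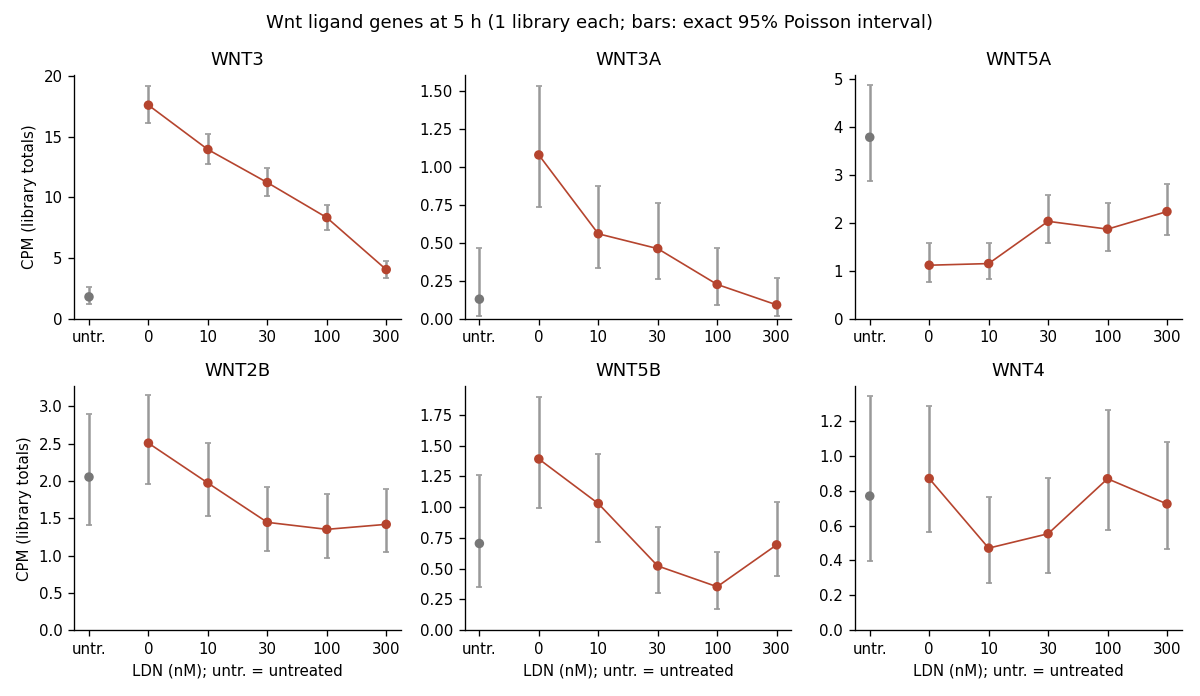
CPM at 5 h of 6 Wnt ligand genes (vertical axes, each from 0) in untreated cells (grey) and with BMP4, IWP2 and 0 to 300 nM LDN (red), 1 library each, with exact 95% Poisson intervals. WNT3 goes down from 17.6 to 4.04 CPM, and WNT5A is highest in untreated cells.

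WNT3 stood at 17.6 CPM with no LDN, 13.9 with 10 nM, 11.2 with 30 nM, 8.33 with 100 nM, 4.04 with 300 nM and 1.79 in untreated cells. Each dose lay below the one before it, with counting intervals that did not overlap. The level without LDN was 9.81 times that of untreated cells (6.71 to 14.9), and at 300 nM it was 0.230 times that without LDN (0.188 to 0.278) and still 2.25 times that of untreated cells (1.49 to 3.52). The trend was a log2 change of -1.86 (SE 0.19, edgeR adjusted p = 2.13e-05), and it kept its call under every alternative run. In the summed FPKM of the 19 ligands WNT3 held 60.1% without LDN, 26.6% at 300 nM and 20.1% in untreated cells.

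WNT3A had 31, 19, 15, 7 and 3 counts from 0 to 300 nM LDN (1.08, 0.559, 0.461, 0.225 and 0.0905 CPM) and 2 in untreated cells (0.128 CPM). No dose lay above the one before it, and the level at 300 nM was at that of 3 counts. The level without LDN was 8.41 times that of untreated cells (2.14 to 72.6), and at 300 nM it was 0.0839 times that without LDN (0.0164 to 0.269). It was below the filter, and the edgeR fit without one (31851 genes) gave a trend of -3.08 (SE 0.63, adjusted p = 0.000394).

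WNT5A stood at 1.11 CPM with no LDN, 1.15 with 10 nM, 2.03 with 30 nM, 1.87 with 100 nM, 2.23 with 300 nM and 3.78 in untreated cells. The lowest 2 doses lay together below the other 3, whose intervals overlapped, and untreated cells were highest. The interval at 100 nM (1.42 to 2.41 CPM) also overlapped those at 0 nM (0.762 to 1.57 CPM) and 10 nM (0.816 to 1.57 CPM), so these groups of doses were not fully told apart. The level without LDN was 0.294 times that of untreated cells (0.185 to 0.460), at 300 nM it was 2.01 times that without LDN (1.31 to 3.14), and against untreated cells it was 0.590 (0.414 to 0.846). The trend was 1.07 (SE 0.31, edgeR adjusted p = 0.0301). The call was lost in DESeq2 (adjusted p = 0.0817) and in the fits without the library at 0 nM (0.161), 10 nM (0.0899), 100 nM (0.0554) or 300 nM (0.103), each an edgeR adjusted p. On the FPKM scale 1 FPKM stood for 5.86 CPM at 0 nM and 2.21 at 300 nM.

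WNT2B stood at 2.50, 1.97, 1.44, 1.35 and 1.42 CPM from 0 to 300 nM LDN and at 2.05 CPM in untreated cells. The highest level was without LDN, and its interval (1.96 to 3.15 CPM) held the level of untreated cells. The trend was -0.88 (SE 0.29, edgeR adjusted p = 0.0458), and the call was lost in DESeq2 (adjusted p = 0.173) and whichever dose was left out (edgeR adjusted p 0.0521 to 0.388). ST7L reached 11.3 CPM in these libraries, with the overlap described above.

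WNT5B had 40, 35, 17, 11 and 23 counts from 0 to 300 nM LDN (1.39, 1.03, 0.523, 0.354 and 0.694 CPM) and 11 in untreated cells (0.705 CPM). It was highest without LDN and lowest at 100 nM. The ratio of no LDN to untreated was 1.97 (0.994 to 4.27), and the edgeR fit without a filter gave a trend of -1.37 that did not pass (SE 0.48, adjusted p = 0.0575).

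The other 5 genes gave no difference that was detectable at this depth. WNT4 lay between 0.471 and 0.870 CPM in all 6 libraries, with 0.769 CPM in untreated cells. WNT7B had 2 to 10 counts in each library, WNT11 had 1 to 8 and WNT8A 0 to 7. WNT6 had 0 counts in all 6, which allows up to 0.0883 to 0.192 CPM in each.

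At 4 h in the time series and at 5 h in the dose response the early direction can be set side by side, from separate libraries and separate 0 h or untreated cells. For WNT3 the ratio was 5.88 and 9.81, for WNT3A 20.4 and 8.41, and for WNT5A 0.471 and 0.294, each with an interval that did not include 1. WNT2B and WNT4 had intervals above 1 at 4 h (2.31 and 1.93) and ones that included 1 at 5 h (1.22, 0.795 to 1.91, and 1.13, 0.548 to 2.47). WNT7B was at 1.89 (1.12 to 3.16) and 1.09 (0.291 to 4.93). Of these genes, only WNT3 and WNT3A passed in edgeR at 4 h, and the log2 change of WNT7B was 0.84 (SE 0.55). Times, RNA kits and library preparation differed, and the difference between the experiments was not tested.

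**Figure D4:**
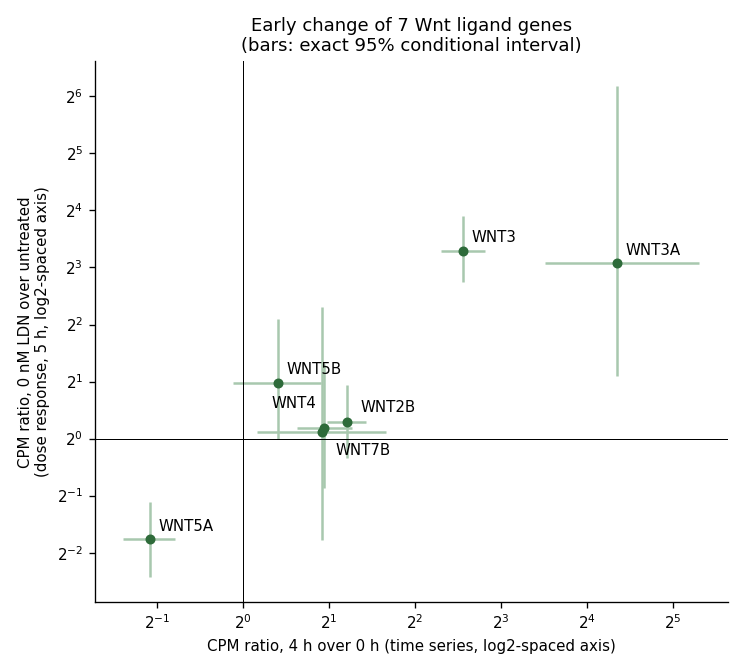
Ratio of CPM at 4 h to that at 0 h (horizontal) and of CPM without LDN to untreated cells at 5 h (vertical) for 7 Wnt ligand genes, on log2-spaced axes, with exact 95% intervals for counting error. WNT3 and WNT3A lie above 1 and WNT5A below 1 on both axes.

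Among the 9 other ligands, WNT9B moved early as WNT3 did. Its start lies 46 bases from the outermost WNT3 start, which is not the start of the printed WNT3 window. Whether the 2 genes share a promoter was not tested. WNT9B had 3 and 10 counts at 0 h, then 97, 129, 96, 121 and 488 counts at 4, 12, 20, 28 and 42 h (2.14 CPM at 4 h and 7.97 CPM at 42 h), so unlike WNT3 it was highest at 42 h. Its log2 change was 4.09 at 4 h (SE 0.53, edgeR adjusted p = 2.67e-12) and its trend 3.78 (SE 1.13, edgeR adjusted p = 0.0311). WNT9B was at 0.079 and 0.140 CPM at 0 h and passed the filter only through later libraries. In the dose response it had 27, 33, 15, 6 and 3 counts from 0 to 300 nM and 1 in untreated cells. WNT9A, the other one of the 9 past the filter in the time series, passed no test there (trend 0.24, edgeR adjusted p = 0.696).

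The machinery that makes and releases Wnt ligands was measured in the same libraries. PORCN, the target of IWP2, stood at 15.9 and 16.5 CPM at 0 h and between 9.74 and 15.8 CPM later, with a trend of -0.39 that did not pass (edgeR adjusted p = 0.150). WLS, the carrier of Wnt ligands, stood at 0.659 and 1.09 CPM at 0 h and then at 1.01, 2.92, 22.3, 93.2 and 398 CPM at 4, 12, 20, 28 and 42 h. WLS was therefore low while WNT3 was at its highest and high when WNT5B and WNT6 were (trend 9.73, SE 0.55, edgeR adjusted p = 2.48e-05). Of the 9 secretion genes tested, 2 rose in the time trend (WLS and VPS35) and none fell, beside 19.2% and 17.5% of all genes, and none passed in the LDN trend, where PORCN was at 0.15 (edgeR adjusted p = 0.365) and WLS at -0.81 (adjusted p = 0.0748). PORCN stood at 15.2 to 18.0 CPM in the libraries with BMP4 and IWP2 and at 24.7 CPM in untreated cells, a difference that was not tested.

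Receptor genes were called in both directions, and the list was not tested against all genes. Of 16 Frizzled, LRP, ROR, RYK and PTK7 genes tested, 4 rose and 4 fell in the time trend, where 19.2% and 17.5% of all genes did, and 3 rose and 3 fell with LDN dose, where 10.4% and 10.9% did. At 4 h against 0 h, 3 of the 16 were higher and 1 lower, where 4.39% and 0.632% of all genes were. At 42 h against 0 h, 7 were higher and 6 lower, where 19.9% and 17.8% of all genes were. Both contrasts rest on 1 later library. In the time trend FZD7 fell by 2.83 (SE 0.41) and ROR1 by 2.41 (SE 0.30) on the log2 scale, and FZD4 rose by 2.46 (SE 0.59). FZD1, a receptor of the Frizzled family, stood at 3.08 and 3.22 CPM at 0 h and 27.0 CPM at 4 h. With LDN, FZD1 fell by 2.52 (SE 0.15) and ROR2, a coreceptor of WNT5A, by 1.13 (SE 0.11), while FZD7 rose by 1.14 (SE 0.07), all past the edgeR threshold.

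Genes that report or limit Wnt signaling were called in both directions, in small lists that are not set apart from all genes here (19.2% rose and 17.5% fell over time, 10.4% and 10.9% with LDN). Of 8 targets and feedback genes tested in the time trend, 1 rose and 2 fell: RNF43, which removes Frizzled from the cell surface, rose by 5.95 (SE 0.28), and AXIN2, the common β-catenin target, and APCDD1 fell by 2.66 (SE 0.74) and 2.01 (SE 0.48). RNF43 was at 0.790 and 0.561 CPM at 0 h and passed the filter only through later libraries. AXIN2 stood at 65.4 and 62.6 CPM at 0 h, 22.9 at 4 h and 8.08 to 10.8 CPM from 12 h on, so every later library lay below both at 0 h. With LDN it went from 15.3 CPM at 0 nM to 40.0 at 300 nM (log2 1.42, SE 0.08, edgeR adjusted p = 1.29e-07), against 45.3 CPM in untreated cells, and over this list 2 genes rose (AXIN2 and NKD2) and 2 fell (TCF7 and NKD1) of 7 tested. Of 7 secreted antagonists tested, 1 rose and 2 fell in the time trend (DKK2 rose by 5.29, and FRZB and SFRP5 fell by 3.28 and 2.45 on the log2 scale), and 1 rose and 3 fell with LDN (SFRP1 rose by 0.86, and NOTUM, SFRP5 and DKK3 fell by 4.26, 0.80 and 0.30). DKK2 averaged 1.06 CPM over the time series, just above the filter. NOTUM, an enzyme that takes the lipid off Wnt ligands, had 2 and 12 counts at 0 h and 1426 at 4 h (31.5 CPM), and went from 34.3 CPM at 0 nM LDN to 0.996 at 300 nM and 0.321 CPM in untreated cells.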

How the data were processed

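RNA-seq libraries of GFP::SMAD4 RUES2 cells were analysed, 7 of the time series and 6 of the dose response, grouped by the labels. Reads were trimmed (Cutadapt) and aligned to GRCh38 (STAR 2.7.8a) by the authors, who obtained gene abundance from RSEM 1.3.3, as the submitters' processing notes and methods state. The annotation release and the strand setting are not given in the sources used here. The deposited expected counts are whole numbers, not scaled for depth. The deposited FPKM values were scaled by the authors for transcript length and depth, and their depth is that of the counts.

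CPM was obtained by dividing each count by its library total, with exact Poisson intervals for levels and exact conditional intervals for ratios, which cover counting error only. Trends and contrasts were fitted with edgeR 4.0.16 in R 4.3.3 (quasi-likelihood test, TMM, two-sided, Benjamini-Hochberg adjustment at 0.05) for genes that averaged 1 CPM or more. All times were fitted together for the 4 h and 42 h contrasts. The study related the 5 h levels to a measured SMAD4 signal, which was not used here. The order of the LDN doses in the labels took its place. Alternatives were DESeq2 1.42.0, limma 3.58.1 on log2(FPKM + 0.1), library totals, no filter, another dose scale and leaving out each library. The scripts were tested on simulated data.

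All 10 genes are described whatever their values. From each list of pathway genes, counts are given, with up to 3 of those past a trend test and, always, PORCN and WLS. WNT9A, and members of short lists beyond the first 3, were named after their values were seen. Genes most like a member were sought for the 3 members with the largest change at 42 h, among genes that averaged 5 CPM or more. The members and lists were chosen with earlier results of these data known. Reporter sequences stayed in library totals and out of tests.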

Additional observations from a re-analysis of the deposited data

How the results depend on the processing

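No paired analysis was possible because only the 0 h group has 2 libraries. Of 278 member values under the alternatives, 202 kept their direction and their side of the threshold or, where there was no test, moved by no more than the SD of the 0 h libraries. Of the rest, 25 lost a call, 3 gained one, 39 without a test moved further and 9 reversed. DESeq2 called 396 genes higher and 59 lower at 4 h, and 168 were lower there without the filter. With limma on log2(FPKM + 0.1) the time trend had 4403 genes lower, the LDN trend 223 higher and 459 lower, and the 4 h and 42 h contrasts 0 and 0 each, where an unadjusted p under 0.05 was reached by 2013 higher and 497 lower genes at 4 h and by 2647 and 5012 at 42 h. In these contrasts WNT3, WNT3A and WNT6 at 4 h (limma adjusted p 0.367 to 0.536) and all 6 members called at 42 h (0.112 to 0.160) lost their call and kept their direction. The cause was not tested.

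Leaving out each library gave 1872 to 3436 genes higher and 1387 to 3166 lower in the time trend, both lowest without 42 h, and 874 to 1423 higher and 1104 to 1551 lower in the LDN trend, where 874 is without 0 nM and 994 without 300 nM. Of the 4 time trends that missed the threshold, that of WNT3A stayed above 0 whichever library was left out (1.96 to 4.47), and the others changed sign, over -0.18 to 0.93 for WNT2B, -0.13 to 2.82 for WNT3 and -0.27 to 0.25 for WNT5A. WNT2B reversed with library totals (time trend -0.0606, 42 h -0.01827) and WNT5A without the filter (0.01533). Library totals moved the median of all genes by -0.25 at 42 h and by -0.24 in the time trend, and the log2 changes above are relative to it. The 4 h value of WNT2B passed with library totals (1.15, edgeR adjusted p = 0.0315). WNT4, WNT5B, WNT6 and WNT7B kept their rise in the time trend under every alternative run.

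No time after 0 h and no dose has a replicate. WNT6 before 20 h, WNT8A, WNT11 before 28 h and, in the dose response, WNT3A, WNT7B and WNT11 rest on few counts. Without LDN against untreated cells, FPKM put WNT5B also above 2-fold (2.41, against 1.97 in CPM) and WNT7B at 0.571 (1.09 in CPM).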
